A study of Mus musculus with 12 samples.

Results

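Neutrophil chemokines, their receptors and neutrophil genes were examined across mouse melanoma tumours that differed in galectin-3 of the tumour line and of the host. The set held 10 of the 909 genes that could be named on a focused Affymetrix array. It comprised the chemokine genes Cxcl1, Cxcl2, Cxcl5, Ppbp and Pf4, the receptor genes Cxcr2 and Csf3r, the growth factor gene Csf3, and the myeloid genes Clec4d and Srgn. The genes were chosen by name with earlier results of these data known, and each probe set was selected on its mean level over all 12 arrays. Only Cxcr2 had more than 1 probe set, and the one used averaged 4.82 on the log2 scale, against 3.04 for the other. All 10 genes were measured on all 12 arrays, and no filter on low levels was applied.

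RNA came from tumours of mice injected with 1 of 2 melanoma lines, Tm1N3, labelled as expressing galectin-3, or Tm1G3, in which the labels give it as silenced. Hosts were galectin-3 knockout (Gal3 -/-) or wild-type (WT) mice. The 4 groups were Tm1N3 tumours of knockout hosts, Tm1G3 tumours of knockout hosts, Tm1N3 tumours of wild-type hosts and Tm1G3 tumours of wild-type hosts, with 3 arrays each. The series text tells of a melanoma line with galectin-3 silenced, of overexpression from a plasmid coding for it, and of syngeneic hosts. Strain, age, tumour stage and the number of clones are not given in the sources used here, and whether replicates are separate animals is not stated in the labels. The titles give each array its own number, and an array is called a tumour below without more being known, so the tests below measure spread between samples that may be technical.

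Lgals3, which encodes galectin-3, stood at 9.35, 9.69 and 10.55 in Tm1N3 tumours and at 9.15, 9.80 and 8.98 in Tm1G3 tumours of knockout hosts. In wild-type hosts it stood at 9.80, 9.72 and 10.39 in Tm1N3 tumours and at 9.52, 9.33 and 9.99 in Tm1G3 tumours. These ranges overlapped in every pair of groups, so the gene does not separate the labels here. All levels are the deposited log2 values after RMA (background correction, quantile normalization and probe summary), and the number of arrays limits their precision. A log2 difference of 1 is a doubling of signal, and levels of different genes are not compared, since each probe set has its own response.

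CXCL1, CXCL2, CXCL5 and the cleaved product of Ppbp are chemokines that attract neutrophils through the receptor CXCR2. Activated macrophages, epithelium, endothelium and tumour cells can make the first 3, usually after interleukin-1, tumour necrosis factor or microbial stimuli acting through NF-κB. Ppbp and Pf4 encode chemokines stored in the alpha granules of platelets, and PF4 does not act through CXCR2 in the way its neighbours do. Csf3 encodes G-CSF, which drives neutrophil production and release through the receptor encoded by Csf3r. In tumours, neutrophils drawn by these signals can promote vessel growth or restrain tumour cells.

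The chemokine genes of the set lie in 1 cluster on mouse chromosome 5, in the order Cxcl5, Ppbp, Pf4, Cxcl1 and Cxcl2, with Cxcl3 and Cxcl15 between Pf4 and Cxcl1. Start regions of 3 of them are shown because Cxcl1 and Cxcl2 were highest on another array than Pf4. The sequences are those of RefSeq (GRCm38.p6, plus strand), from 250 bases before to 50 after the annotated start, at chr5:90890995-90891294 for Cxcl1, chr5:90903649-90903948 for Cxcl2 and chr5:90772185-90772484 for Pf4. Capitals mark matches to GGAATTTCC, a form of the site that NF-κB binds, or to AGATAA, a form of the site that GATA factors bind.

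Cxcl1: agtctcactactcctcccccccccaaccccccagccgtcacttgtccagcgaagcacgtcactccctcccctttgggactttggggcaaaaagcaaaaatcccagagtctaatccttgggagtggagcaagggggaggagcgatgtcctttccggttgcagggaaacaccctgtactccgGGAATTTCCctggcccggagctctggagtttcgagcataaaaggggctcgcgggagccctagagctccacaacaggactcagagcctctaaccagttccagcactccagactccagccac
Cxcl2: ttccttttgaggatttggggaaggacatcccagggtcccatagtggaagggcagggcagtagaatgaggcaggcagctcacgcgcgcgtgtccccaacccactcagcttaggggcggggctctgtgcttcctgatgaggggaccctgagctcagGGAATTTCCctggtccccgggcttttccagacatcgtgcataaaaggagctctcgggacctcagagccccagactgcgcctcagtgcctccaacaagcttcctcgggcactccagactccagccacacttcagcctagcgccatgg
Pf4: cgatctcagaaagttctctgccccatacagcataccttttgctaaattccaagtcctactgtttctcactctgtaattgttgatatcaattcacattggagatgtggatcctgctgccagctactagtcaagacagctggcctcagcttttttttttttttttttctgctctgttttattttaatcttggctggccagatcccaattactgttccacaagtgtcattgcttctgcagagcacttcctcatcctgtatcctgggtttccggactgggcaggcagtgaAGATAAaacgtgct

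The NF-κB form began 70 bases before the start in Cxcl1 and 96 bases before it in Cxcl2. Of the 8 genes of the set with a start region in the table, these were the only 2 with a match on either strand. Among all 32851 mouse start regions of the same length, 0.317% held it. AGATAA matched in Pf4 alone, after the start, and 11.2% of all start regions held it on either strand; the 2 motifs did not overlap. The motifs were picked after the sequences had been read, and a match is a description of letters, not of binding.

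The 10 genes differed far more between single tumours than between groups. Cxcl2 had the widest range of all 1246 probe sets, 6.08 on the log2 scale over 12 arrays, or 67.6-fold. Ppbp had the third widest (4.46), and Srgn (3.27), Clec4d (3.27) and Pf4 (3.25) came 6th, 7th and 8th. The median range was 2.59 over the 10 genes and 0.44 over all probe sets. Spread among arrays of the same group made up 60.0% (Csf3) to 97.3% (Pf4) of each gene's variance, with a median of 87.0%, against a median of 70.6% over all probe sets.

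Single arrays carried this spread. Replicate 1 of the Tm1G3 tumours in wild-type hosts was the highest of the 12 arrays for 8 of the 10 genes, and replicate 3 of the Tm1N3 tumours in knockout hosts for the other 2, Ppbp and Pf4. Over all probe sets these arrays were highest for 12.04% and 7.54%. Set against the mean of the other 2 arrays of its own group, the wild-type Tm1G3 array was over 1 log2 unit higher for 9 of the 10 genes and for 27 of all 1246 probe sets. The knockout Tm1N3 array was so for 5 of the 10 and 53 of all. The medians of these arrays were 5.57 and 5.58, in a range of 5.51 to 5.60 over 12 arrays. Quantile normalization holds array medians close, so these values do not check array quality. At the low end, replicate 1 of the Tm1N3 tumours in knockout hosts was lowest or second lowest for 7 of the 10. The comparisons below are therefore also given without the high arrays. The line comparison in knockout hosts and the host comparison in Tm1N3 tumours are also given without the low one.

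**Figure D1:**
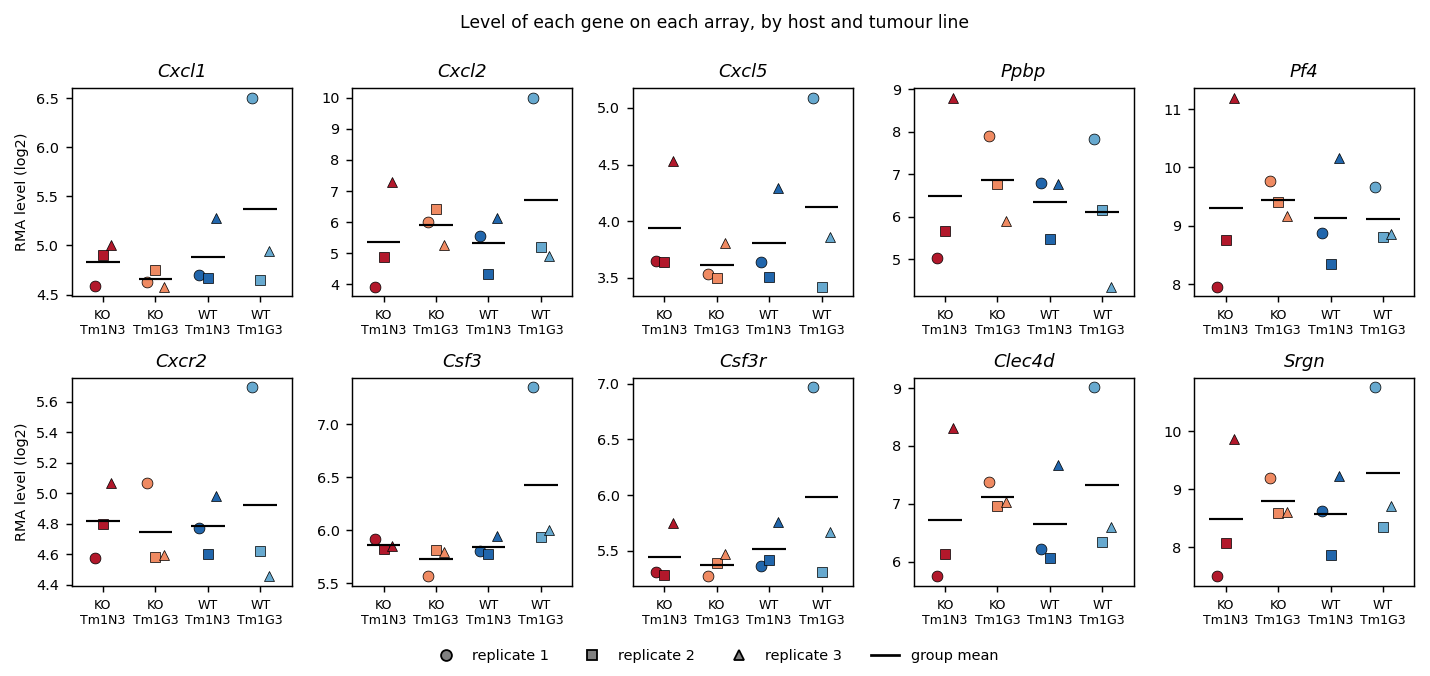
Level of each of the 10 genes (vertical axis, RMA log2) on each array, by host and tumour line (horizontal axis); marker shapes are replicate numbers and bars are group means. Cxcl2 reached 10.004 in replicate 1 of the wild-type Tm1G3 group and no more than 7.27 elsewhere, while Pf4 peaked at 11.20 in replicate 3 of the knockout Tm1N3 group.

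Among the CXCR2 ligands, Cxcl2 encodes the chemokine MIP-2. It stood at 3.92, 4.88 and 7.27 in Tm1N3 tumours, against 6.02, 6.43 and 5.25 in Tm1G3 tumours, of knockout hosts. In wild-type hosts it stood at 5.54, 4.33 and 6.14 in Tm1N3 tumours, against 10.004, 5.19 and 4.90 in Tm1G3 tumours. One wild-type Tm1G3 tumour was thus 31.1-fold above the mean of the other 2 of its group, and the groups overlapped in both hosts.

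Cxcl1, which encodes KC, was flatter, at 4.58, 4.90 and 5.01 in Tm1N3 tumours and 4.63, 4.75 and 4.58 in Tm1G3 tumours of knockout hosts. Wild-type hosts gave 4.70, 4.67 and 5.28 in Tm1N3 tumours and 6.51, 4.65 and 4.95 in Tm1G3 tumours. Only the tumour with the Cxcl2 peak stood clear of the rest, 3.27-fold above its group's other 2.

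Cxcl5, which encodes LIX, had the dimmest probe set of the 10, with 18.0% of all probe sets at or below its mean level. It measured 3.65, 3.64 and 4.53 in Tm1N3 tumours and 3.54, 3.50 and 3.81 in Tm1G3 tumours of knockout hosts, and 3.64, 3.50 and 4.29 in Tm1N3 tumours and 5.09, 3.42 and 3.86 in Tm1G3 tumours of wild-type hosts. The same wild-type Tm1G3 tumour was the highest, followed by replicate 3 of both Tm1N3 groups.

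The platelet chemokine genes peaked in another tumour than Cxcl2, in an otherwise similar order (Spearman's rho with Cxcl2 below). Pf4 stood at 7.95, 8.76 and 11.20 in Tm1N3 tumours, against 9.76, 9.41 and 9.17 in Tm1G3 tumours, of knockout hosts. Its levels in wild-type hosts were 8.88, 8.34 and 10.17 in Tm1N3 tumours, against 9.67, 8.81 and 8.85 in Tm1G3 tumours. Replicate 3 was the highest of both Tm1N3 groups and the Tm1G3 tumours lay between, so the groups overlapped.

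Ppbp stood at 5.02, 5.66 and 8.80 in Tm1N3 tumours, against 7.90, 6.77 and 5.90 in Tm1G3 tumours, of knockout hosts. Wild-type hosts had 6.79, 5.48 and 6.77 in Tm1N3 tumours, against 7.83, 6.15 and 4.35 in Tm1G3 tumours. Its peak was 11.0-fold above the other 2 tumours of that knockout Tm1N3 group, and Pf4 was 7.16-fold above them in the same tumour.

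Csf3 was nearly level outside 1 tumour, at 5.91, 5.82 and 5.85 in Tm1N3 tumours and 5.56, 5.82 and 5.80 in Tm1G3 tumours of knockout hosts. In wild-type hosts it measured 5.80, 5.78 and 5.95 in Tm1N3 tumours and 7.35, 5.93 and 6.0004 in Tm1G3 tumours. The 11 other arrays spanned 5.56 to 6.0004, and the wild-type Tm1G3 tumour with the Cxcl2 peak was 2.61-fold above the other 2 of its group. The groups did not overlap for Csf3 in 2 comparisons, Tm1N3 against Tm1G3 tumours in knockout hosts and knockout against wild-type hosts in Tm1G3 tumours. In the first, the lowest Tm1N3 value (5.823) lay just above the highest Tm1G3 value (5.815). How many of all probe sets were apart in this way was not counted, so this describes levels only.

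Csf3r, the G-CSF receptor gene of the neutrophil lineage, measured 5.31, 5.28 and 5.75 in Tm1N3 tumours and 5.27, 5.39 and 5.47 in Tm1G3 tumours of knockout hosts. Its wild-type levels were 5.36, 5.42 and 5.76 in Tm1N3 tumours and 6.97, 5.31 and 5.67 in Tm1G3 tumours. Apart from the 1 high tumour, 2.79-fold above the other 2 of its group, every array lay between 5.27 and 5.76.

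Cxcr2, the receptor gene, stayed between 4.46 and 5.70, with group means of 4.82 ± 0.24, 4.75 ± 0.27, 4.79 ± 0.19 and 4.93 ± 0.67 (SD, n = 3 each) in Tm1N3 and Tm1G3 tumours of knockout hosts and Tm1N3 and Tm1G3 tumours of wild-type hosts. The name of its probe set carries the suffix for probes that match similar sequences, so related transcripts may add to it. Names of the Cxcl2, Pf4 and Clec4d probe sets carry suffixes for probes shared between transcripts.

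Clec4d, which encodes the C-type lectin MCL of myeloid cells, stood at 5.75, 6.13 and 8.31 in Tm1N3 tumours, against 7.38, 6.96 and 7.04 in Tm1G3 tumours, of knockout hosts. It stood at 6.22, 6.07 and 7.67 in Tm1N3 tumours, against 9.02, 6.35 and 6.60 in Tm1G3 tumours, of wild-type hosts. The 2 highest tumours were again the wild-type Tm1G3 and the knockout Tm1N3 tumour, 5.83-fold and 5.17-fold above the other 2 of their groups.

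Srgn encodes serglycin, the proteoglycan core of secretory granules in blood cells of many lineages. It measured 7.49, 8.08 and 9.87 in Tm1N3 tumours and 9.19, 8.59 and 8.61 in Tm1G3 tumours of knockout hosts, and 8.63, 7.86 and 9.23 in Tm1N3 tumours and 10.77, 8.35 and 8.72 in Tm1G3 tumours of wild-type hosts. Its order of tumours was close to that of Clec4d, with the same 2 arrays on top.

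**Figure D2:**
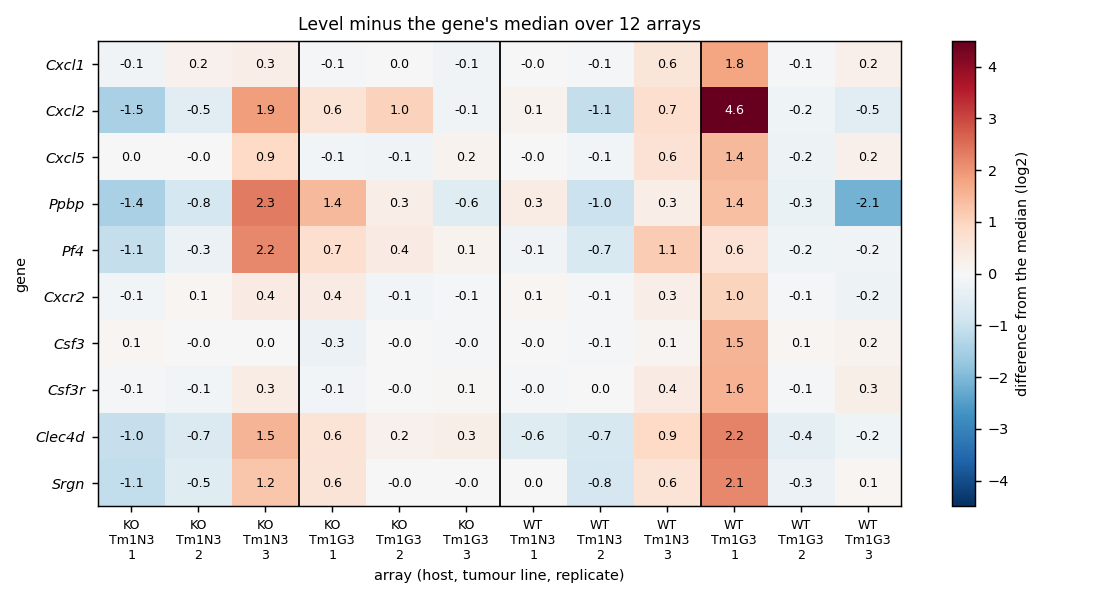
Level of each gene (rows) on each array (columns, by host, tumour line and replicate) minus that gene's median over the 12 arrays, in log2 units, red above and blue below. Replicate 1 of wild-type Tm1G3 tumours is above the median for all 10 genes, and replicate 3 of knockout Tm1N3 tumours is above it most for Ppbp (2.34), Pf4 (2.18) and Cxcl2 (1.88).

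The comparison of tumour lines in knockout hosts sets Tm1N3 against Tm1G3 tumours grown without galectin-3 from the host. None of the 10 genes passed (limma, Benjamini-Hochberg adjusted p under 0.05 over 1246 probe sets), where 0.722% of all probe sets did, and none had an unadjusted p under 0.05. Tm1N3 minus Tm1G3 differences were positive for 5 genes and negative for 5, with a median of -0.038 against 0.00087 over all probe sets. Cxcl2 averaged 5.36 ± 1.73 in Tm1N3 tumours and 5.90 ± 0.60 in Tm1G3 tumours (SD, n = 3 each), a difference of -0.54 ± 1.26 (SE) with a 95% interval from -3.34 to 2.26. Pf4 differed by -0.14 ± 0.72, Ppbp by -0.36 ± 1.06, Clec4d by -0.40 ± 0.80 and Csf3r by 0.071 ± 0.34 (SE). The smallest adjusted p among the 10 was 0.936 (Cxcl5, 0.32 ± 0.40).

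Without replicate 3 of the Tm1N3 tumours, 7 of 10 differences were negative, with a median of -0.54. Ppbp then differed by -1.52, Cxcl2 by -1.50, Clec4d by -1.19, Pf4 by -1.09 and Srgn by -1.01, and still none passed (smallest limma adjusted p = 0.478) or had an unadjusted p under 0.05. Leaving out replicate 1 of the wild-type Tm1G3 tumours as well narrows the pooled spread and leaves these differences as they were. Then 4 of the 10 (Cxcl2, Pf4, Clec4d and Srgn) had an unadjusted limma p under 0.05, against 12.4% of all probe sets. None passed after adjustment (smallest limma adjusted p = 0.291). Both arrays were left out for their high levels of these same genes, so these shares cannot be compared. Without only replicate 1 of the Tm1N3 tumours, the low array, every difference that was negative on all arrays turned positive. Pf4 was then at 0.53, Ppbp at 0.37, Cxcl2 at 0.18, Srgn at 0.18 and Clec4d at 0.091, and no other sign changed.

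In wild-type hosts 8 of the 10 differences were negative, that is, lower in Tm1N3 tumours, with a median of -0.47 against 0.0011 over all probe sets. None passed in limma, nor had any an unadjusted p under 0.05, where 0.883% of all probe sets passed and 13.1% had such a p. Cxcl2 averaged 5.33 ± 0.92 in Tm1N3 tumours and 6.70 ± 2.87 in Tm1G3 tumours (SD, n = 3 each), a difference of -1.36 ± 1.26 (SE) with a 95% interval from -4.16 to 1.44. Srgn differed by -0.70 ± 0.70, Clec4d by -0.67 ± 0.80, Csf3 by -0.58 ± 0.30, Cxcl1 by -0.48 ± 0.39 and Csf3r by -0.47 ± 0.34 (SE), whereas Ppbp (0.24 ± 1.06) and Pf4 (0.017 ± 0.72) had positive values. Csf3 had the smallest adjusted p of the 10, 0.457 in limma.

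This negative balance rested on 1 tumour. Without replicate 1 of the Tm1G3 tumours, 9 of 10 differences were positive, with a median of 0.17. Cxcl2 was then at 0.29, Cxcl1 at 0.089, Csf3r at 0.024, Clec4d at 0.18 and Srgn at 0.040. Of the 8 negative differences Csf3 alone kept its sign, at -0.12, and none passed (smallest limma adjusted p = 0.684).

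Averaged over both hosts, no gene of the set passed (smallest limma adjusted p = 0.717) or had an unadjusted p under 0.05, where 4.25% of all probe sets passed. The median difference was -0.17, and it was 0.062 without replicate 1 of the wild-type Tm1G3 tumours, -0.41 without replicate 3 of the knockout Tm1N3 tumours and -0.12 without both.

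The host comparison in Tm1N3 tumours asks what host galectin-3 changes where the labels say that the tumour cells express it. Group means of the 10 genes were close, with knockout minus wild-type differences from -0.093 (Srgn) to 0.18 (Pf4) and a median of 0.027 against -0.016 over all probe sets. Cxcl2 averaged 5.36 ± 1.73 in knockout hosts and 5.33 ± 0.92 in wild-type hosts (SD, n = 3 each). Intervals were wide all the same: -2.78 to 2.82 for Cxcl2, -2.20 to 2.49 for Ppbp and -1.43 to 1.78 for Pf4, against -0.64 to 0.67 for Csf3. No gene passed in limma (smallest adjusted p = 0.99997) or had an unadjusted p under 0.05, and 0% of all probe sets passed. Without replicate 3 of the knockout hosts, 9 of 10 differences were negative, with a median of -0.47 and none past the threshold. Ppbp was then at -1.01, Cxcl2 at -0.93 and Pf4 at -0.77. Without only replicate 1 of the knockout hosts, the low array, Csf3 alone was negative. Ppbp was then at 0.88, Pf4 at 0.85, Cxcl2 at 0.74 and Srgn at 0.40.

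In Tm1G3 tumours, labelled galectin-3 silenced, 8 of 10 knockout minus wild-type differences were negative, with a median of -0.50 against -0.011 over all probe sets. Csf3 averaged 5.73 ± 0.14 in knockout hosts and 6.43 ± 0.80 in wild-type hosts (SD, n = 3 each), a difference of -0.70 ± 0.30 (SE). It was the only gene of the set with an unadjusted p under 0.05 (0.0382 in limma, adjusted p = 0.764), against 6.18% of all probe sets, and 0% passed after adjustment. Cxcl1 (-0.71 ± 0.39), Csf3r (-0.61 ± 0.34), Cxcl5 (-0.51 ± 0.40) and Cxcl2 (-0.80 ± 1.26) had negative values that did not pass, and the platelet genes Ppbp (0.75 ± 1.06) and Pf4 (0.33 ± 0.72) positive ones that did not pass either. Without replicate 1 of the wild-type hosts the Csf3 difference was -0.24, that of Cxcl1 -0.14, that of Csf3r -0.11 and that of Cxcl2 0.85, and 6 of 10 were positive. Csf3 levels without replicate 1 of the wild-type hosts were 5.56, 5.82 and 5.80 in knockout hosts against 5.93 and 6.0004 in wild-type hosts. Such a separation was not counted over all probe sets.

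Averaged over lines, the host difference had a median of -0.24 over the 10 genes, none of which passed (smallest limma adjusted p = 0.751; 0% of all probe sets passed). That median was 0.10 without replicate 1 of the wild-type Tm1G3 tumours, where 7 of 10 differences were positive, -0.38 without replicate 3 of the knockout Tm1N3 tumours and -0.088 without both. Whether the line difference itself differed between hosts was tested as an interaction, and no gene of the set passed it (smallest limma adjusted p = 0.996; 0% of all probe sets passed). Its median was 0.46 on all arrays, -0.27 without the wild-type Tm1G3 array, -0.027 without the knockout Tm1N3 array and -0.68 without both. No gene of the set had an unadjusted p under 0.05 in either. Without both high arrays, 3 of the 10 (Cxcl2, Ppbp and Clec4d) had one in the interaction, against 8.51% of all probe sets (smallest limma adjusted p = 0.575). Those arrays were left out for their high levels of these same genes, so these shares cannot be compared. The line and host comparisons share arrays, so their values are not independent of each other.

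**Figure D3:**
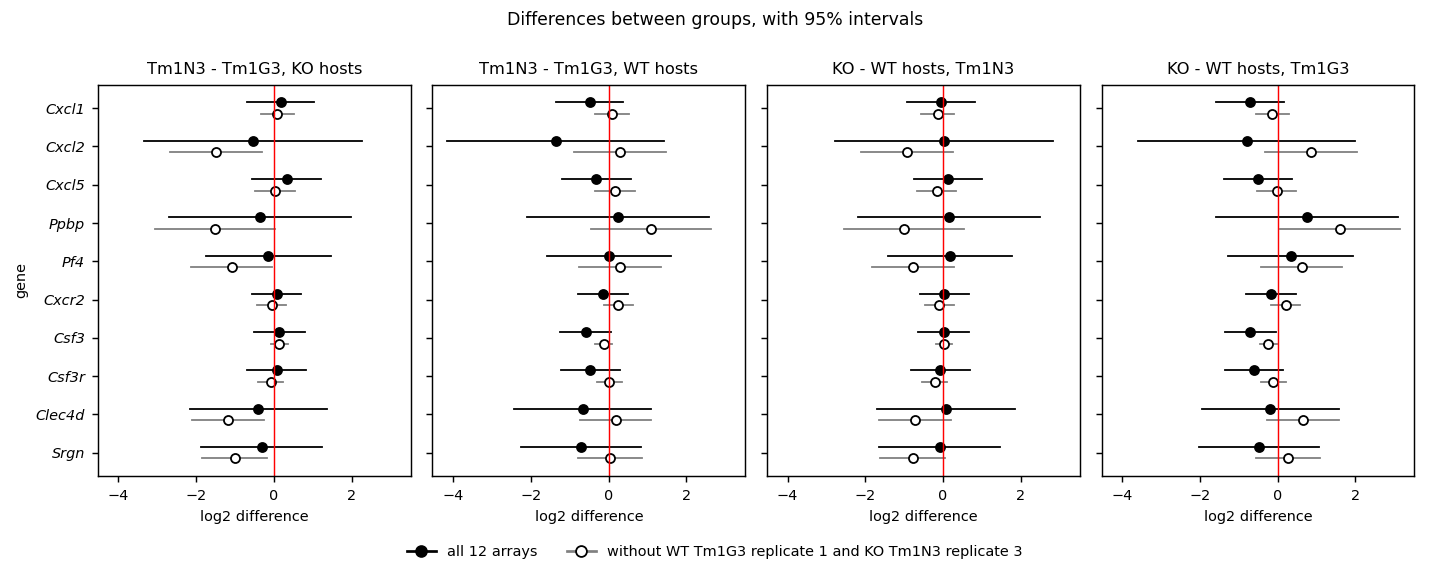
Log2 difference of each gene (rows) in 4 comparisons (panels), with 95% intervals from limma; filled points use all 12 arrays and open points leave out replicate 1 of the wild-type Tm1G3 and replicate 3 of the knockout Tm1N3 tumours. Intervals are unadjusted: on all arrays only that of Csf3 between hosts in Tm1G3 tumours, -1.36 to -0.046, leaves out 0, and open and filled points often lie on opposite sides of 0.

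The levels of the 10 genes were set against each other across the 12 arrays, pair by pair. All 45 Pearson correlations were positive, from 0.11 (Pf4 with Csf3) to 0.97 (Cxcl1 with Csf3r). Spearman's rho was negative for 1 pair (Ppbp with Csf3, -0.10), and r was negative for 6 pairs, each with Csf3, without replicate 1 of the wild-type Tm1G3 tumours. Two-sided p-values come from 100000 permutations of the arrays and the adjusted ones (Benjamini-Hochberg) cover the 45 pairs, whose genes were picked with earlier results known. Of the 45, 32 had an adjusted permutation p under 0.05 by Pearson's r and 12 by Spearman's rho, all 12 of which passed by both. How many pairs of other probe sets were positive or passed was not counted. These counts therefore describe the set and do not set it apart from other genes. The permutations treat all 12 arrays as exchangeable, so neither the groups nor any pairing of replicate numbers between hosts enters these p-values. No processing batch is given in the labels.

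Clec4d and Srgn ran together over the whole range of tumours, with Pearson's r = 0.97 (permutation p = 1e-05, adjusted p = 0.00045) and Spearman's rho = 0.92 (permutation p = 8e-05, adjusted p = 0.00169); the p of r is the smallest that these permutations can give. With the 2 arrays farthest from the Clec4d median left out, r was 0.90. Cxcl2 and Pf4 gave Pearson's r = 0.66 (permutation p = 0.028, adjusted p = 0.0394) and Spearman's rho = 0.91 (permutation p = 0.0001, adjusted p = 0.00169), and r was 0.90 without the 2 arrays farthest from the Cxcl2 median. Ppbp and Pf4, named here for platelets, gave Pearson's r = 0.83 (permutation p = 0.00065, adjusted p = 0.00402) and Spearman's rho = 0.83 (permutation p = 0.00137, adjusted p = 0.00685), and r was 0.82 without the 2 arrays farthest from the Ppbp median. Pf4 had a higher rho with the myeloid gene Clec4d, 0.93 (permutation p = 4e-05, adjusted p = 0.00169). Their Pearson's r was 0.83 (permutation p = 0.00116, adjusted p = 0.00402), and 0.82 without the 2 arrays farthest from the Pf4 median. Which cells gave the Pf4 signal was not tested. These orders of tumours thus did not rest on the extreme arrays.

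Relations of Csf3, and some of Csf3r, did rest on them. Csf3 and Csf3r gave Pearson's r = 0.94 (permutation p = 0.0038, adjusted p = 0.00814) and Spearman's rho = 0.54 (permutation p = 0.0741, adjusted p = 0.128), and r was 0.39 without the 2 arrays farthest from the Csf3 median. Cxcl2 and Csf3r gave Pearson's r = 0.86 (permutation p = 0.00607, adjusted p = 0.0101) and Spearman's rho = 0.53 (permutation p = 0.0797, adjusted p = 0.128), with r at 0.22 without the 2 arrays farthest from the Cxcl2 median. Cxcl2 and Csf3 went to -0.29, against 0.76 on all arrays. Cxcl1 and Csf3r, the strongest pair, had an r of 0.68 without the 2 farthest from the Cxcl1 median, and Csf3r stood at 0.59 with Clec4d and 0.59 with Srgn without the 2 farthest from its own median. Cxcl5 and Csf3r held more: r was 0.92 (permutation p = 9e-05, adjusted p = 0.00101; rho = 0.73, permutation p = 0.00948) and stayed at 0.86 without the 2 arrays farthest from the Cxcl5 median. Pf4 and Csf3 showed no relation that passed (r = 0.11, permutation p = 0.712; rho = 0.077, permutation p = 0.816).

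**Figure D4:**
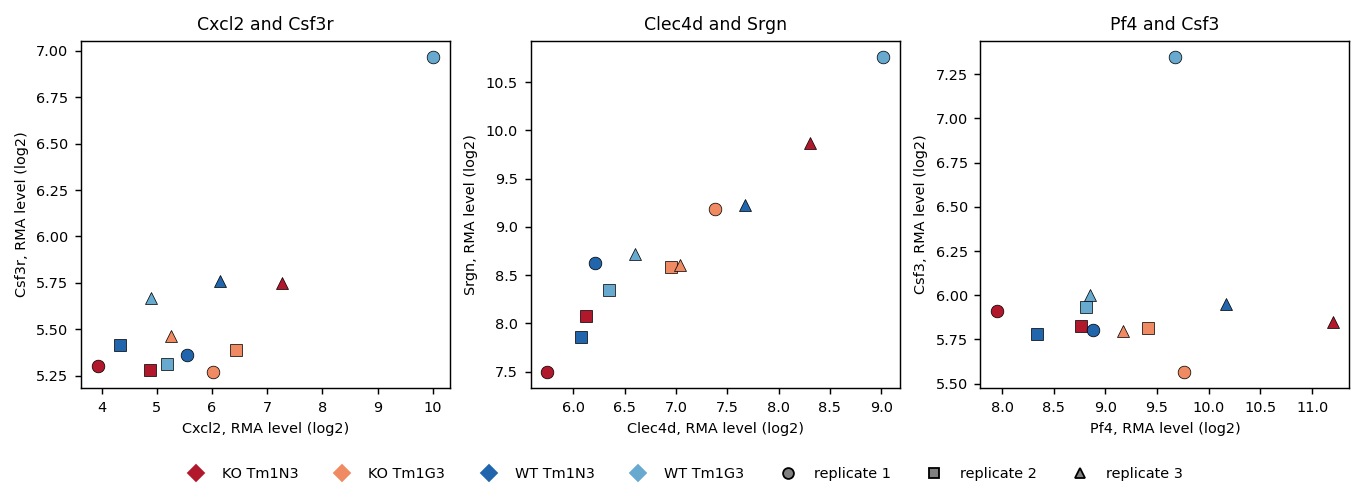
Levels (RMA log2) of Cxcl2 and Csf3r, Clec4d and Srgn, and Pf4 and Csf3 on each of 12 arrays; colours are groups and marker shapes replicate numbers. Clec4d and Srgn lie along 1 line, whereas the high Csf3r and Csf3 values belong to a single wild-type Tm1G3 tumour.

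Among the genes whose pattern over the 12 arrays was most like that of Cxcl2 were cytokine and myeloid genes. These included Ccl3 (Pearson's r = 0.97) and Ccl4 (0.94), which encode macrophage inflammatory chemokines, Il1b (0.94), the interleukin-1 beta gene, and Il1r2 (0.91), a decoy interleukin-1 receptor gene of neutrophils and monocytes. Without the wild-type Tm1G3 array with the peak, their r with Cxcl2 was 0.91, 0.82, 0.86 and 0.70 in the same order. Csf3r was most like Il1r2 (0.96), the interleukin-1 alpha gene Il1a (0.95), the interleukin-6 gene Il6 (0.94), the chemokine receptor gene Ccr1 (0.93) and Ccl3 (0.92). Without that array their r was 0.83, 0.55, 0.59, 0.76 and 0.59 in the same order. These were chosen as the highest of all named probe sets over 12 arrays, so no p is given.

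Il1b stood at 5.98, 6.57 and 7.49 in Tm1N3 tumours and 7.46, 6.75 and 6.82 in Tm1G3 tumours of knockout hosts. Wild-type hosts had 6.71, 5.92 and 6.67 in Tm1N3 tumours and 11.08, 6.45 and 6.35 in Tm1G3 tumours. The tumour with the Cxcl2 peak was thus 25.6-fold above the other 2 of its group for Il1b, 7.62-fold for Ccl3, 4.41-fold for Il1r2, 3.99-fold for Il1a and 3.54-fold for Il6. It was 2.82-fold above them for Clec4e, which encodes the lectin Mincle and pairs with MCL on myeloid cells.

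Lists of related genes, which were also chosen with earlier results known, are set beside the shares of all probe sets that passed. In the line comparisons these were 0.722% in knockout hosts, 0.883% in wild-type hosts and 4.25% averaged over hosts. For every host comparison and the interaction the share was 0%, so no list gene could pass there. Of 9 measured acute inflammatory cytokine and adhesion genes (Il1a, Il1b, Il1rn, Il6, Ccl3, Ccl4, Ccl7, Cxcl10 and Icam1), none passed in limma in any of the 7 comparisons, and 6 had their highest level in the wild-type Tm1G3 tumour named above. Their median Tm1N3 minus Tm1G3 difference was -0.21 in knockout hosts and -0.68 in wild-type hosts, against 0.00087 and 0.0011 over all probe sets. Without replicate 1 of the Tm1G3 tumours the wild-type median was -0.043, and without replicate 3 of the Tm1N3 tumours the knockout median was -0.37. None of 10 further growth and release factors of neutrophils and their receptors (among them Csf2, Csf2rb, Cxcl12, Cxcr4, Il17a and Il6) passed, nor did the neutrophil genes Cxcr1, Clec4e, Il1r2 and Selplg. The same held for 10 other CXC chemokine and receptor genes. Of 9 adhesion genes of leukocyte capture, Icam2 was lower in Tm1N3 tumours averaged over hosts (-0.40 ± 0.082, SE; limma adjusted p = 0.0215), and 8 did not pass. Icam2 passed in 9 of 12 fits that left out 1 array, and lost the call without replicate 2 or 3 of the Tm1N3 or replicate 3 of the Tm1G3 tumours of wild-type hosts (limma adjusted p up to 0.0558). Named for their size in the averaged line comparison, none of them past the threshold, were Cxcl12 (-0.48 ± 0.22), the chemokine that holds neutrophils in bone marrow through Cxcr4 (0.32 ± 0.17), Il6 (-0.41 ± 0.30), Cxcl9 (-0.49 ± 0.32), Il1b (-0.93 ± 0.73) and Il1r2 (-0.35 ± 0.38), each as Tm1N3 minus Tm1G3 with its SE.

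Whether these tumours held neutrophils can be checked only in part. Of 15 listed neutrophil markers, those reported here are Csf3r, Cxcr2, Clec4d and Srgn, all of the set, and the granule and S100 genes that define mature neutrophils were not analysed here. Clec4d and Srgn are also found in other leukocytes, so the label rests on Csf3r and Cxcr2. These last 2 genes gave Pearson's r = 0.80 (permutation p = 0.0196) and Spearman's rho = 0.22 (permutation p = 0.499). Their r was -0.058 without the 2 arrays farthest from the Cxcr2 median. The dimmer Cxcr2 probe set was not set against Csf3r. It too was highest in replicate 1 of the wild-type Tm1G3 tumours (3.79). In knockout Tm1N3 tumours it stood at 2.92, 3.15 and 3.13, so replicate 3 was not its highest there. In RNA of whole tumours, fewer cells of a type and less RNA per cell cannot be told apart.

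As a mean, macrophage and monocyte markers were high in the same tumours as the set. The mean log2 level of 5 of 13 listed markers that were measured (Adgre1, Csf1r, Mrc1, Ccr2 and Siglec1) was 6.06, 6.29 and 7.75 in Tm1N3 tumours and 7.22, 6.79 and 6.88 in Tm1G3 tumours of knockout hosts. It was 6.52, 6.53 and 7.47 in Tm1N3 tumours and 7.78, 6.59 and 7.22 in Tm1G3 tumours of wild-type hosts. The 2 highest values belonged to the same 2 tumours as those of Clec4d and Srgn, and none of the 5 markers passed in any comparison. The part of these cells in the levels of Clec4d, Srgn and the chemokines was not tested. The mean level of 3 measured endothelial markers (Pecam1, Icam2 and Sele, of 9 listed) kept between 6.58 and 7.20 on the 12 arrays. Of other listed cell types, Ccl5, a T cell and myeloid chemokine gene, was lower in Tm1N3 tumours averaged over hosts (-0.65 ± 0.12, SE; limma adjusted p = 0.0113), while Klrk1 and Ifng did not pass. Kit, the stem cell factor receptor gene of melanocytes and mast cells, was lower in Tm1N3 than in Tm1G3 tumours of knockout hosts (-1.55 ± 0.21, SE; limma adjusted p = 0.00635). Mcam, a melanoma adhesion gene, was higher in Tm1N3 tumours averaged over hosts (0.66 ± 0.15, SE; limma adjusted p = 0.0336), and so was Il3ra, the interleukin-3 receptor gene (0.95 ± 0.11, SE; limma adjusted p = 0.00134). Of all probe sets, 4.25% passed in the line comparison averaged over hosts and 0.722% in that of knockout hosts. With 1 array left out at a time, Ccl5, Kit and Il3ra passed in all 12 fits of these comparisons, whereas Mcam passed in 3 of them (limma adjusted p up to 0.0913). Their part in the levels of the 10 genes was not tested. Of 8 platelet markers only Pf4, Ppbp and Selp were measured, and Selp, the P-selectin gene, lay between 4.97 and 5.36 on all 12 arrays. It stood at 5.12 in the knockout Tm1N3 tumour where Pf4 and Ppbp peaked, below the other 2 of that group (5.29 and 5.26).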

How the data were processed

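Total RNA for 12 arrays was extracted with Trizol and labelled with biotin for Affymetrix arrays, per the labels' protocols. The values are log2 levels as the authors deposited them, and RMA is the one tool that the submitters' processing notes name, without a version. They ran from 2.14 to 13.9 over 1246 probe sets. Background and signal over background were not analysed here.

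Probe sets were named through the RefSeq accession in their names (963 of 1246, for 909 genes). A model of 4 group means on all 12 arrays and all probe sets was fitted with lmFit and eBayes of limma 3.58.1 (R 4.3.3), with Benjamini-Hochberg adjustment over 1246 probe sets, a threshold of 0.05, 8 residual and 2.39 prior degrees of freedom. The procedure was tested on simulated data. Correlations used SciPy 1.17.1. Genes, lists and comparisons were chosen with earlier results of these data known. Genes named are the 10 of the set, Lgals3, list genes that passed or were needed to describe a list, and the 5 probe sets most like Cxcl2, Csf3r and Pf4; 1 gene that this rule names is not reported here.

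Replicate numbers are shared between groups. Deviations of same-numbered arrays from their group means had an r over probe sets of 0.184 to 0.752 across hosts in Tm1N3 and 0.249 to 0.308 across hosts in Tm1G3 tumours. As every pair exceeded 0.1, the numbers were taken to pair the hosts within a line. Arrays of unlike numbers were not set against each other, so these r cannot show that the numbers mark pairs, and the pairing is an assumption. The lines (-0.66 to 0.273 in knockout, 0.00808 to 0.544 in wild-type hosts) were not paired. Over the genes of the set alone, r across hosts was -0.379, 0.841 and 0.737 in Tm1N3 and 0.181, -0.548 and 0.892 in Tm1G3 tumours. The main model has no replicate block, so its host intervals and p-values do not use this assumed pairing, which enters only as an alternative. What a replicate number marks is not given in the labels. Alternatives covered scaling, centring, the groups fitted, the variance model, dim probe sets, the probe set rule, the pairing and each array left out.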

Additional observations from a re-analysis of the deposited data

How the results depend on the processing

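No gene of the set passed in any of the 7 comparisons under any other setting run for it (22 for each simple comparison, 21 for each average and 20 for the interaction), with a smallest limma adjusted p of 0.28 over the 40 differences of the 4 simple comparisons. Signs of these 40 held in every fit that left out no array of the groups compared: values quantile normalized again, arrays centred on their medians, only the compared groups fitted, limma with a trend or robust, the lowest 25% of probe sets left out, all probe sets of a gene averaged, and a fixed or random replicate block. The replicate block, for which 0 genes of the set passed, thus changed no call; it could not be fitted to the interaction as a fixed term, and fitting only the compared groups does not apply to the averages and the interaction, which use all 4. The filter on dim probe sets left Cxcl5 untested. Differences averaged over hosts or lines and the interaction are described by counts and medians only; of their 10 differences each, 7, 7 and 8 changed sign with 1 or both arrays left out (line, host, interaction), and 1 of the line average in a fit on all arrays. Over all probe sets the line comparison called 4 to 13 in knockout hosts (9 on the deposited values), 2 to 24 in wild-type hosts (11) and 23 to 63 on average (53).

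Leaving out 1 array at a time changed the sign of 31 of the 40, none of which passed on all arrays; the cause is the array's own level, since the difference is one of group means. Ranges of the log2 difference over 12 such fits, for the genes that changed sign, were in the line comparison in knockout hosts Cxcl2 (-1.50 to 0.18), Ppbp (-1.52 to 0.37), Pf4 (-1.09 to 0.53), Cxcr2 (-0.058 to 0.23), Csf3r (-0.082 to 0.15), Clec4d (-1.19 to 0.091), Srgn (-1.01 to 0.18). For the line comparison in wild-type hosts they were Cxcl1 (-0.84 to 0.089), Cxcl2 (-2.26 to 0.29), Cxcl5 (-0.67 to 0.17), Ppbp (-0.64 to 1.10), Pf4 (-0.50 to 0.41), Cxcr2 (-0.37 to 0.25), Csf3r (-0.80 to 0.024), Clec4d (-1.18 to 0.18), Srgn (-1.17 to 0.040). For the host comparison in Tm1N3 tumours they were Cxcl1 (-0.16 to 0.14), Cxcl2 (-0.93 to 0.74), Cxcl5 (-0.17 to 0.37), Ppbp (-1.01 to 0.88), Pf4 (-0.77 to 0.85), Cxcr2 (-0.096 to 0.15), Csf3 (-0.014 to 0.070), Csf3r (-0.22 to 0.056), Clec4d (-0.72 to 0.58), Srgn (-0.79 to 0.40). For the host comparison in Tm1G3 tumours they were Cxcl2 (-1.70 to 0.85), Ppbp (-0.13 to 1.61), Cxcr2 (-0.41 to 0.21), Clec4d (-0.68 to 0.65), Srgn (-0.95 to 0.26). Without both replicate 1 of the wild-type Tm1G3 and replicate 3 of the knockout Tm1N3 tumours, a choice made after seeing the data, changed signs were in the line comparison in knockout hosts Cxcr2 -0.058, Csf3r -0.082; in the line comparison in wild-type hosts Cxcl1 0.089, Cxcl2 0.29, Cxcl5 0.17, Cxcr2 0.25, Csf3r 0.024, Clec4d 0.18, Srgn 0.040; in the host comparison in Tm1N3 tumours Cxcl2 -0.93, Cxcl5 -0.17, Ppbp -1.01, Pf4 -0.77, Cxcr2 -0.096, Clec4d -0.72; in the host comparison in Tm1G3 tumours Cxcl2 0.85, Cxcr2 0.21, Clec4d 0.65, Srgn 0.26. With 3 arrays a group, the number of arrays limits what could be detected: the median SE of a simple comparison was 0.55 for the 10 genes, against 0.098 over all probe sets.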

Other observations

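Of 14 listed platelet genes, only 2 outside the set were measured, so few could rank among the genes most like Pf4. The genes whose levels over the 12 arrays were most like those of Pf4 were not platelet genes by name. They were Papss2 (Pearson's r = 0.93), which makes the sulfate donor for glycans, Bgn (0.92), the matrix proteoglycan biglycan, Mrc2 (0.92), a collagen uptake receptor of fibroblasts, Angptl4 (0.91), a secreted regulator of lipoprotein lipase, and Vcan (0.90), the matrix proteoglycan versican. All 5 were highest in the knockout Tm1N3 tumour where Pf4 and Ppbp peaked, and without that array their r with Pf4 was 0.87, 0.86, 0.85, 0.86 and 0.81 in the same order. Bgn, for example, stood at 8.87, 9.21 and 10.85 in Tm1N3 tumours and 10.11, 9.40 and 9.71 in Tm1G3 tumours of knockout hosts, and at 9.48, 9.28 and 10.42 in Tm1N3 tumours and 9.73, 9.38 and 9.91 in Tm1G3 tumours of wild-type hosts. As deviations from group means, Pf4 was most like B3galnt1 (0.98), Mrc2 (0.95), Papss2 (0.95), Ugt1a6b (0.95) and the macrophage mannose receptor gene Mrc1 (0.95). These are the highest of all named probe sets, so no p is given.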
